A study of Rattus norvegicus with 6 samples.

Results

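The transporters of amino acids, sugars, monocarboxylates and related small solutes made up 59 genes of the Slc1, Slc2, Slc3, Slc5, Slc6, Slc7, Slc16, Slc27, Slc36, Slc38 and Slc43 families, out of 29479 gene identifiers counted in rat lateral ventricular choroid plexus. They were taken by name from the authors' list of genes that differed in abundance between the embryonic and the adult plexus, which names 10093 identifiers, and 60 names matched before the vitamin carrier *Slc5a6* was left out. Because the members were selected on the difference between these same pools, their values at both ages are given as a description. Calls from the fit over all genes are printed for them only to show how each value stands to the spread between pools and to the processing, and serve as no independent test. Genes of these families that the authors had not called are not analysed here. The samples were untreated Sprague-Dawley rats at embryonic day 15 (E15) and adults of 6 weeks. At each age 3 pools were sequenced, each of the plexuses from both lateral ventricles of 10 animals, with 1 library per pool. The tissue was taken whole, with its stroma, vessels and blood, and in such samples fewer cells of a type and less RNA per cell cannot be told apart.

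Solute carriers (Slc) are membrane proteins that move small molecules either down their gradient or coupled to sodium, protons or the exchange of a second solute. In the choroid plexus, the secretory epithelium that makes cerebrospinal fluid, they stand in the apical and basolateral membranes and set which nutrients enter the fluid and which metabolites and transmitters are cleared from it. Several of them need a partner protein to reach the membrane, such as basigin for the lactate carriers or a heavy chain for the heteromeric amino acid exchangers.

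Libraries held 17875089 to 19204440 counts. Transthyretin (*Ttr*), the leading secreted protein of the plexus epithelium, took 2.66% to 3.31% of E15 counts and 14.4% to 17.5% of adult counts, and TMM (trimmed mean of M-values) scaling, which sets the libraries level on the bulk of genes, was used for all normalized counts below. Each value is a raw count scaled to a library of 19267327 counts, pools are given in the order of replicates 1, 2 and 3, errors of means are SD over 3 pools, and log2 fold changes are E15 over adult from edgeR with their SE. Counts grow with transcript length, so levels were compared between ages and pools and not between genes. Members together took 0.443% to 0.459% of the counts at E15 and 0.304% to 0.334% in the adult, whereas their summed normalized counts were 64301 to 66780 for E15 against 79733 to 83301 for the adult, so the order of the ages in this sum depends on the scaling. Over the members, chi-square values divided by their degrees of freedom lay between 5.17 and 76.4 for pairs of pools of the same age, above the value of sampling alone, and E15 replicate 1 stood further from the other E15 pools (76.4 and 73.1) than these did from each other (5.17). All 8 markers of choroid plexus epithelium that had a name in the authors' list were present in every pool and higher in the adult. Their sums were 475905 to 566963 normalized counts (E15) and 4118640 to 5051240 (adult), most of each being *Ttr*.

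Of the 59 members, 56 had more than 10 counts over the 6 pools and entered the fit over 16643 genes. The edgeR quasi-likelihood test with Benjamini-Hochberg adjustment over all genes called 32 of them higher at E15, where 34.7% of all genes tested were called in that direction, and 23 higher in the adult, where 29.3% were. In 32 members every E15 pool lay above every adult pool, against 38% of all genes tested, and in 22 every adult pool lay above every E15 pool, against 32.1%. Since the members had been selected on this contrast, nothing is read from these shares. With scaling by total counts the split was 33 higher at E15 and 11 in the adult, and without the 10 most abundant genes in the totals it was 33 and 15, because under these scalings the median over all genes (log2) goes from 0.14 to 0.94 and 0.60. The median over the members was 1.0 and the median absolute log2 fold change 2.17, beside 0.14 and 0.98 over all genes tested. Selection on the contrast raises the members' absolute value, and over all genes called here its median was 1.44. At the edge of the selection, 1 of the 56 was not called here. The 3 members below the count filter were *Slc38a8* with 10 raw counts and *Slc7a12* with 9, all at E15, and the intestinal glucose carrier *Slc5a1* with 9, all in the adult.

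**Figure D1:**
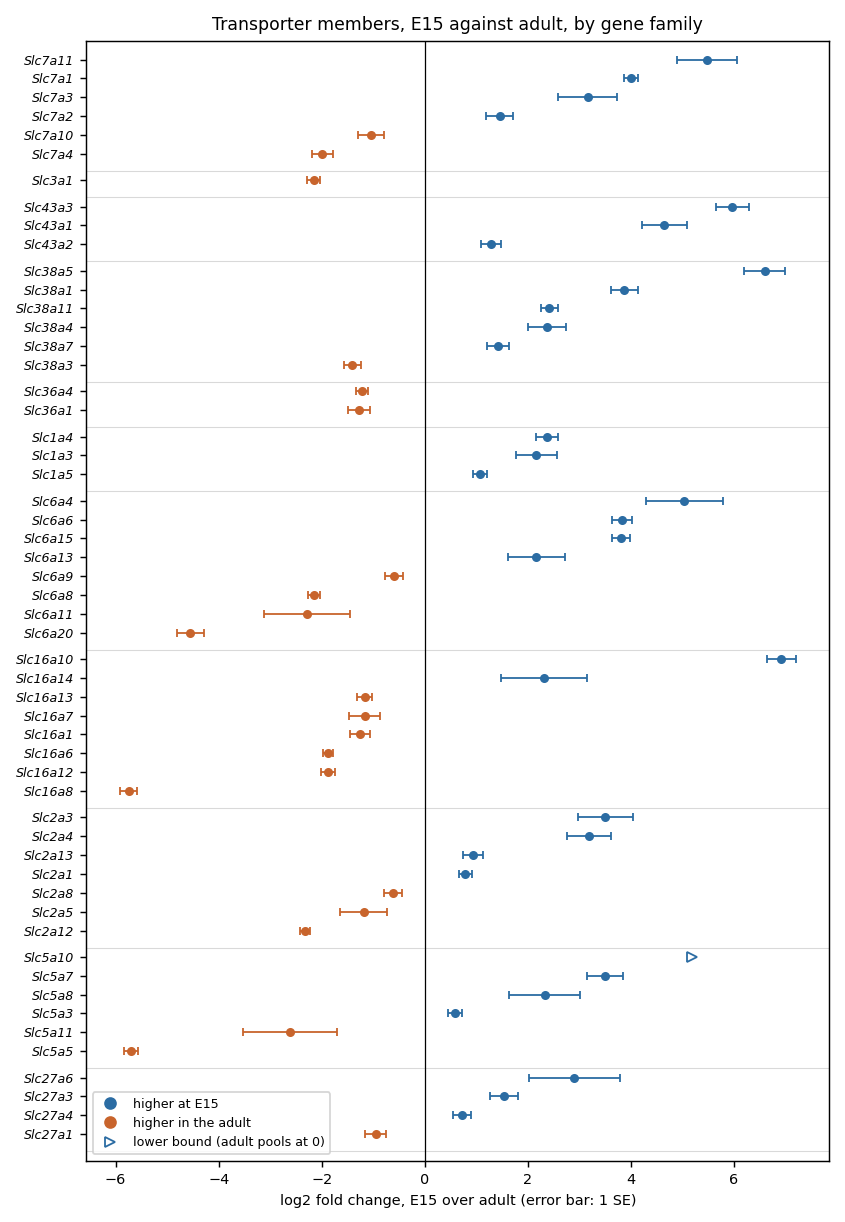
Log2 fold change (E15 over adult) of 54 of the 56 members in the fit, grouped by family, with error bars of 1 SE; the triangle for *Slc5a10* marks a lower bound, since its adult pools held 0 counts. All members of Slc1 and Slc43 lay on the E15 side and both of Slc36 on the adult side; *Slc2a8* and *Slc6a9*, at log2 -0.61 and -0.59, changed sides when libraries were scaled by total counts.

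The light chain of the cystine and glutamate exchanger, *Slc7a11* (ENSRNOG00000010210), was 44.5-fold higher at E15 (log2 5.47 ± 0.58 SE). Its normalized counts were 13790.4, 8964 and 8945 at E15 against 65.1, 471 and 172 in adult pools. The ages did not overlap, yet the adult pools spread over a wide range, with replicate 2 the highest, and without that pool the fold was 87.0. That pool also held the highest adult sum of several marker lists, astrocyte markers among them (2594, 5203 and 1961 normalized counts). The part of these cell types in this value was not tested. The arginine and lysine carrier *Slc7a1* (ENSRNOG00000000924) stood at 6497, 5588 and 5195 at E15 against 320.0, 365 and 391 in adult pools, 16-fold (log2 4.0 ± 0.14 SE) higher at E15 with little spread among pools of an age. Other cationic amino acid carriers had the same direction, *Slc7a2* with 137, 139 and 147 at E15 against 35.4, 57.1 and 61.8 in adult pools, and *Slc7a3*, a carrier of low count, at 8.95-fold (14.8-fold without adult replicate 2). Against these, *Slc7a4*, whose protein resembles the cationic carriers, was 3.96-fold higher in the adult, at 364, 641 and 660.3 at E15 against 2285, 2219 and 2101 in adult pools. The small neutral amino acid and D-serine exchanger *Slc7a10* also lay higher in the adult, with 377, 755 and 711 at E15 against 991, 1309 and 1508 in adult pools (2.07-fold), a call lost with total-count scaling (log2 -0.24). E15 replicate 1 was the lowest E15 pool in both *Slc7a4* and *Slc7a10* and the highest in *Slc7a11*. The heavy chain *Slc3a1*, which carries the cystine and dibasic amino acid exchanger to the membrane, was 4.46-fold (log2 -2.16 ± 0.12 SE) higher in the adult, at 674, 533 and 566 at E15 against 2656, 2552 and 2700.2 in adult pools.

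Shares within a family do not depend on how libraries are scaled, and are compared here only between ages. Here and below, the counts of a family are those of its members alone. Family genes that the authors had not called are missing from them, so shifts between members are partly set by the selection. *Slc7a11* made up 59.2% ± 5.1 at E15 against 5.49% ± 4.6 in the adult of the summed counts of the 7 Slc7 members, and *Slc7a1* 32.8% ± 2 at E15 against 8.71% ± 0.5 in the adult. *Slc7a4* accounted for 3.3% ± 1.4 at E15 against 53.8% ± 6.9 in the adult, and *Slc7a10* for 3.67% ± 1.6 at E15 against 30.7% ± 4.5 in the adult. The first pair thus led the counts of the Slc7 members in every E15 pool and the second pair in every adult pool. The summed normalized counts of these members were 17673 ± 3075 (E15) and 4121 ± 377 (adult). Such family sums, unlike the shares, depend on the scaling.

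Short stretches before the annotated starts of 3 amino acid carriers are shown here because they hold the letters TGATGNAA, the core of the element that C/EBP and ATF proteins bind in amino acid response genes. RefSeq promoter windows (GRCr8, searched on both strands over the 250 bases before the start) were matched by symbol to 40 of the 59 members, and under 80% of members had one (67.8%), so any comparison of promoter features over the members is void. The letters were found in 3 of the 40, *Slc1a4*, *Slc38a1* and *Slc7a1*, and in 3.4% of all 33469 windows. The share of all windows is background, and nothing is read from the number of members with a match. The motif was picked after the values were known, and a match describes the sequence, not a site in use. Capitals mark the match, which reads on the reverse strand in *Slc1a4*.
*Slc7a1*, GRCr8 chr12:11664432-11664487, plus strand: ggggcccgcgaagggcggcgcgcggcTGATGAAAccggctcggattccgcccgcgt
*Slc38a1*, GRCr8 chr7:129681510-129681569, minus strand: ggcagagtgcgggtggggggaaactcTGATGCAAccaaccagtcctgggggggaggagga
*Slc1a4*, GRCr8 chr14:98761764-98761812, minus strand: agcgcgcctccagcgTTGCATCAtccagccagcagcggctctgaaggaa
The match lay 30 to 23 bases before the start in *Slc7a1*, 142 to 135 in *Slc38a1* and 235 to 228 in *Slc1a4*. Among 5 named genes of amino acid sensing, *Atf4*, which encodes the factor of this response, had a normalized count of 1849.5 ± 92.9 at E15 and 3937 ± 219 in the adult, *Asns* (asparagine synthetase) 263 ± 8.05 at E15 and 892 ± 39.1 in the adult, and *Ddit3* 156 ± 20.9 at E15 and 333 ± 24.7 in the adult. *Atf4*, *Asns*, *Ddit3* and *Chac1* were called higher in the adult, the last pair not with total-count scaling, and *Trib3* was called higher at E15, but not when E15 replicate 2 or 3 or adult replicate 1 or 2 was left out.

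The Slc38 family, which carries glutamine and other neutral amino acids with sodium, held 6 members higher at E15, *Slc38a8* among them below the count filter, and 1 higher in the adult. The system N carrier *Slc38a5* had 637, 1045 and 728 at E15 against 5.66, 15.6 and 2.75 in adult pools, 97.2-fold higher at E15 (log2 6.60 ± 0.40 SE). Its adult pools rested on 18 raw counts in all, and the fold was 182 without adult replicate 2. The system A carrier *Slc38a1* stood at 1000.2, 947 and 873 at E15 against 48.1, 98.7 and 44.0 in adult pools, 14.7-fold (log2 3.87 ± 0.27 SE) higher at E15. *Slc38a11* had 1221, 1286 and 1514 at E15 against 283, 199 and 273 in adult pools (5.33-fold), and *Slc38a4* and the lysosomal glutamine carrier *Slc38a7* were 5.18-fold and 2.68-fold higher at E15. *Slc38a3* (ENSRNOG00000016827), likewise a system N carrier, went the opposite way with 2600.3, 3951 and 4087 at E15 against 9386, 10105 and 8729.7 in adult pools, 2.65-fold (log2 -1.41 ± 0.17 SE) higher in the adult. In the family's counts *Slc38a3* took 50.4% ± 4.4 at E15 against 95.5% ± 0.39 in the adult, while *Slc38a1* took 13.8% ± 3.2 at E15 against 0.635% ± 0.26 in the adult and *Slc38a5* 11.5% ± 2.1 at E15 against 0.0785% ± 0.062 in the adult. The adult pools lay within 1 percentage point of each other in the share of *Slc38a3*.

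The Slc43 carriers were higher at E15 in all 3 members. *Slc43a3*, a nucleobase carrier, had 642, 782 and 739.5 at E15 against 18.4, 3.90 and 12.4 in adult pools, 62.7-fold (log2 5.97 ± 0.32 SE) higher at E15. Of the carriers of large neutral amino acids, *Slc43a1* stood at 188, 155 and 143 at E15 against 1.42, 9.09 and 8.24 in adult pools (25.1-fold) and *Slc43a2* at 428, 577 and 534 at E15 against 229, 243 and 162 in adult pools (2.42-fold). The family fell into strongly and weakly differing members, and *Slc43a2* made up 36.6% ± 2.3 at E15 against 91.9% ± 3.1 in the adult of the family's counts.

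Both members of the Slc36 family of amino acid carriers were higher in the adult, *Slc36a1* with 84.3, 74.7 and 72.1 at E15 against 205, 162 and 191 in adult pools and *Slc36a4* with 567, 569 and 565 at E15 against 1212, 1339 and 1402 in adult pools. Their folds were 2.41-fold and 2.32-fold, and *Slc36a4* made up 88% ± 0.87 at E15 against 87.6% ± 1.9 in the adult of the pair's counts. The call of *Slc36a1* was lost with total-count scaling (log2 -0.46). All 3 Slc1 members were higher at E15. The glutamate carrier *Slc1a3* (GLAST) had 4019, 3329 and 3044 at E15 against 355, 1378 and 575 in adult pools, 4.49-fold (log2 2.17 ± 0.41 SE) higher at E15 and 7.27-fold without adult replicate 2, which held the highest adult value. The neutral amino acid exchangers *Slc1a4* and *Slc1a5* stood at 270.1, 391 and 369 at E15 against 70.8, 70.1 and 57.7 in adult pools (5.18-fold), and at 780.0, 973 and 895 at E15 against 450.2, 429.8 and 379 in adult pools (2.1-fold).

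Slc6 carriers bring in transmitters, osmolytes and amino acids with sodium and chloride, and the 9 members divided between the ages. *Slc6a15*, a carrier of branched-chain amino acids and proline, had 5195, 4109 and 3651 at E15 against 265, 322 and 336 in adult pools, 14-fold (log2 3.81 ± 0.17 SE) higher at E15. The taurine carrier *Slc6a6* was 14.2-fold higher at E15, at 722, 606 and 604 at E15 against 35.4, 55.8 and 44.0 in adult pools. On the adult side, the creatine carrier *Slc6a8* (ENSRNOG00000032701) had 994, 1231 and 1218 at E15 against 5009, 4849 and 5470.5 in adult pools, 4.45-fold (log2 -2.15 ± 0.12 SE) higher in the adult. *Slc6a20*, a proline and imino acid carrier, was 23.5-fold higher in the adult with 24.6, 46.2 and 32.2 at E15 against 1024, 732 and 678 in adult pools. Reads shared with any near copy of this gene would have been left uncounted. The glycine carrier *Slc6a9* was 1.51-fold higher in the adult, with the sign turned under total-count scaling (log2 0.21). Summed over the 9 members, the family had 7281 ± 590.5 normalized counts (E15) and 7244 ± 50.4 (adult). These sums lay close under TMM scaling and depend on the scaling, as the sum over all members did. *Slc6a15* made up 59% ± 6 of the family's counts at E15 against 4.25% ± 0.5 in the adult and *Slc6a8* 15.9% ± 2.9 at E15 against 70.5% ± 4.1 in the adult.

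The GABA carriers *Slc6a13* and *Slc6a11* were uneven among the adult pools. *Slc6a13* had 155, 168 and 189.8 at E15 against 21.2, 80.5 and 11 in adult pools, 4.49-fold higher at E15 and 10.3-fold without adult replicate 2. *Slc6a11* had 5.73, 6.16 and 11 at E15 against 5.66, 84.4 and 22.0 in adult pools, 4.86-fold higher in the adult and 1.85-fold without adult replicate 2, when the call was lost, as it was in 8 of the 16 alternatives in all. In both genes adult replicate 2 had the highest adult value, and in *Slc6a11* the ages overlapped. The serotonin carrier *Slc6a4* had 38.5, 57.0 and 50.2 at E15 against 0, 3.90 and 0 in adult pools, with 185 raw counts at E15 and 3 in the adult, all 3 in adult replicate 2, a ratio of 35.8 with an exact 95% counting interval of 12.1 to 175.

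**Figure D2:**
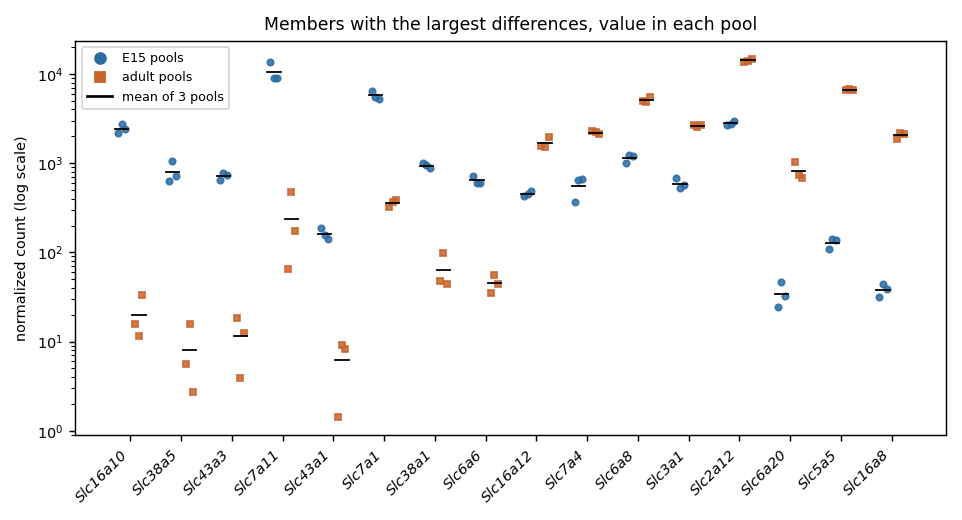
Normalized counts on a log scale for the 8 members with the largest fold change in each direction among those with a mean above 100 at the higher age; circles are E15 pools, squares adult pools and lines means of 3 pools. The ages were apart in all 16, from *Slc16a10* (2443 at E15 and 20.1 in the adult) to *Slc16a8* (38.3 and 2070), and the adult pools of *Slc7a11* and *Slc43a1* spread the most.

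The 9 members of the Slc16 family, monocarboxylate carriers and related proteins, held the largest fitted fold changes of both directions among members with counts at both ages. *Slc16a10* (ENSRNOG00000000588), which carries aromatic amino acids and thyroid hormones, had 2165, 2729.9 and 2433 at E15 against 15.6, 11.7 and 33.0 in adult pools, 121-fold (log2 6.92 ± 0.27 SE) higher at E15. *Slc16a8* (ENSRNOG00000012090), a lactate carrier known from the retinal pigment epithelium and the choroid plexus, had 31.9, 44.7 and 38.4 at E15 against 1889, 2187 and 2136 in adult pools, 53.7-fold (log2 -5.75 ± 0.16 SE) higher in the adult. The stretches before their starts are printed for contrast, with no match of the letters above in either.
*Slc16a10*, GRCr8 chr20:45122359-45122608, minus strand: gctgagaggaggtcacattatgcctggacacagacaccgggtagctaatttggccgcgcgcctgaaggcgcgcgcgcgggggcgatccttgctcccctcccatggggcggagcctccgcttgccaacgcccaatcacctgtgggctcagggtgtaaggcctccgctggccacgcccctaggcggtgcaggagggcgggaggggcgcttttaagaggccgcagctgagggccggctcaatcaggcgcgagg
*Slc16a8*, GRCr8 chr7:112702497-112702746, minus strand: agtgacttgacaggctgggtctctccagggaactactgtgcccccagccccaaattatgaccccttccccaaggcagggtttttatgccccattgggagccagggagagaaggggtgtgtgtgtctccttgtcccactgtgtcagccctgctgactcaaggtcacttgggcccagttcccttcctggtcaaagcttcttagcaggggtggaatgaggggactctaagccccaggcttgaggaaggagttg
The first holds 22 CG dinucleotides and is 68.4% G or C, and the second holds 0 and is 57.2% G or C.

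Of the counts of the 9 Slc16 members, *Slc16a10* took 20.4% ± 0.73 at E15 against 0.0794% ± 0.043 in the adult and *Slc16a8* 0.319% ± 0.023 at E15 against 8.24% ± 0.58 in the adult. The lactate and pyruvate carriers *Slc16a1* and *Slc16a7* were 2.39-fold and 2.25-fold higher in the adult. *Slc16a6* had 1236, 1179 and 1199.9 at E15 against 4685, 4403 and 4145 in adult pools (3.66-fold), and *Slc16a12*, which carries creatine, 432, 454 and 482 at E15 against 1570.2, 1517 and 1963 in adult pools (3.69-fold). *Slc16a13* was 2.24-fold higher in the adult and *Slc16a14*, at 4 raw counts in the adult, 4.97-fold higher at E15, a call lost when any pool but E15 replicate 1 or adult replicate 3 was left out. The family summed to 11981 ± 1243 normalized counts (E15) and 25117 ± 521 (adult). The calls of *Slc16a1*, *Slc16a7* and *Slc16a13* were lost when libraries were scaled by total counts, with log2 values of -0.45, -0.37 and -0.36.

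Among the facilitative sugar carriers (Slc2), *Slc2a1* (GLUT1), the basal glucose carrier, was 1.73-fold (log2 0.79 ± 0.12 SE) higher at E15 and *Slc2a12* (GLUT12) 5.04-fold (log2 -2.33 ± 0.10 SE) higher in the adult. *Slc2a1* had 4821, 6196 and 5435 at E15 against 2927, 3445 and 3144 in adult pools. *Slc2a12* (ENSRNOG00000011161) had 2698, 2770.0 and 2990.2 at E15 against 13793, 13960.4 and 14857 in adult pools. Neither overlapped between ages, and the pools of an age lay close together. In the counts of the 7 Slc2 members the pair exchanged places, with *Slc2a1* at 60.1% ± 2.4 at E15 against 17.6% ± 1.3 in the adult and *Slc2a12* at 31.1% ± 2.6 at E15 against 78.7% ± 1.4 in the adult. The intracellular sugar carrier *Slc2a8* had 237, 347 and 341 at E15 against 483, 489.5 and 442 in adult pools, 1.53-fold higher in the adult, and turned with total-count scaling (log2 0.19). The inositol carrier *Slc2a13* was 1.91-fold higher at E15, and the insulin-responsive *Slc2a4* 9.13-fold. The adult pools of *Slc2a4* rested on 17 raw counts in all, and its fold was 12.2 without adult replicate 2. *Slc2a3*, the neuronal glucose carrier, had 123, 117 and 116 at E15 against 2.83, 22.1 and 5.49 in adult pools, 11.4-fold higher at E15 and 27.0-fold without adult replicate 2. The fructose carrier *Slc2a5* was 2.27-fold higher in the adult at low counts (16.1 ± 2.88 at E15 and 36.7 ± 18.1 in the adult), and its call was lost in 9 alternatives, among them leaving out adult replicate 2 (log2 -0.78).

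Sodium-coupled carriers of the Slc5 family carry unlike solutes, and the 7 members divided between the ages, 4 higher at E15 and 3 in the adult. The iodide carrier *Slc5a5* (ENSRNOG00000018822) had 109, 140.2 and 136 at E15 against 6587, 6782 and 6693 in adult pools, 52-fold (log2 -5.70 ± 0.14 SE) higher in the adult. The choline carrier *Slc5a7* was 11.3-fold higher at E15 with 174, 363 and 359 at E15 against 29.7, 23.4 and 26.1 in adult pools, where E15 replicate 1 held the low value. *Slc5a3*, the main inositol carrier, had 2875, 2286 and 2321 at E15 against 1509, 1536 and 1946 in adult pools, 1.5-fold (log2 0.58 ± 0.14 SE) higher at E15; its locus overlaps another gene, so part of its reads may have been left uncounted. *Slc5a10*, a kidney sugar carrier, had 33.6, 56.2 and 57.2 at E15 against 0, 0 and 0 in adult pools. No count was seen in the adult, so with 3 counts over the adult pools as the limit, it was at least 36.2-fold higher at E15. The inositol carrier *Slc5a11* and the monocarboxylate carrier *Slc5a8* had few counts, with 0, 1.54 and 2.35 at E15 against 12.7, 5.19 and 8.24 in adult pools, and 13.9, 11.6 and 10.2 at E15 against 1.42, 1.30 and 4.12 in adult pools. Their log2 fold changes were -2.62 ± 0.91 SE and 2.32 ± 0.70 SE, and moved to -3.27 without E15 replicate 3 and to 3.00 without adult replicate 3. The call of *Slc5a11* was lost in 7 of the 16 alternatives and that of *Slc5a8* with a replicate block. Of the family's counts, *Slc5a5* took 4.34% ± 0.82 at E15 against 79.7% ± 2.3 in the adult and *Slc5a3* 83.4% ± 5.5 at E15 against 19.8% ± 2.3 in the adult.

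The fatty acid carriers (Slc27), which couple uptake to activation by coenzyme A, had 3 members higher at E15 and 1 in the adult. *Slc27a1* had 983, 1699.6 and 1833 at E15 against 3013, 3072 and 2644 in adult pools, 1.93-fold higher in the adult, a call lost with total-count scaling (log2 -0.14). *Slc27a3* had 202, 405 and 349 at E15 against 125, 112 and 92.0 in adult pools (2.91-fold higher at E15) and *Slc27a4* 443, 644 and 623 at E15 against 357, 387 and 293 in adult pools (1.65-fold). E15 replicate 1 was the lowest E15 pool in these 3 genes. *Slc27a6* was 7.46-fold higher at E15 with 4 raw counts in the adult.

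**Figure D3:**
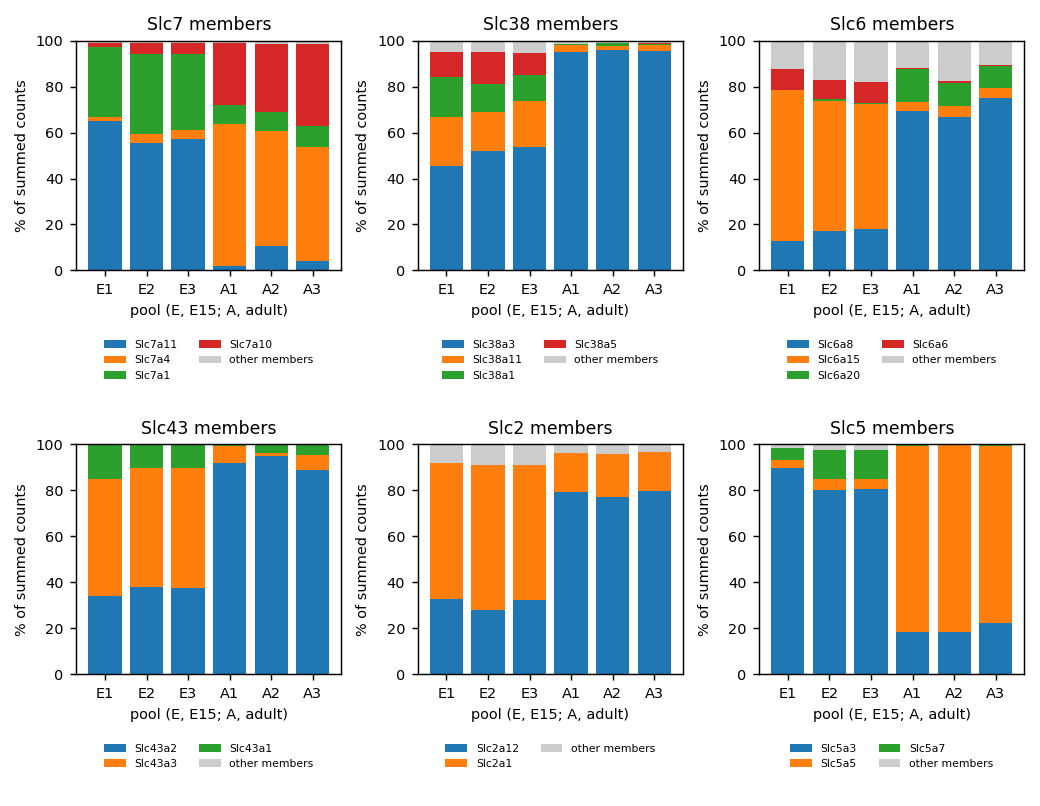
Share of each member in the summed raw counts of the members of its family (percent), for the 3 E15 pools (E1 to E3) and the 3 adult pools (A1 to A3). Members were selected on the difference between ages, and those under 8% at both ages are pooled in grey. The leading colour changed between ages in the same way in every pool in Slc7, Slc6, Slc43, Slc2 and Slc5, while *Slc38a3* led the Slc38 counts in all 6 pools, with 45.4% to 53.8% at E15 and over 95% in the adult; shares depend on transcript length and are to be read across pools only.

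Proteins that work with these carriers were listed as 83 genes, of which 53 had a name in the authors' list and were therefore selected in the same way. Of the 53, 14 were called higher at E15 and 36 in the adult, beside 34.7% and 29.3% of all genes tested. All 6 named genes listed as accessory proteins of carriers (*Bsg*, *Emb*, *Nptn*, *Tmem27*, *Arl6ip5* and *Arl6ip1*) were higher in the adult. None of them is a heavy chain. Collectrin (*Tmem27*), which brings amino acid carriers of the Slc6 family to the membrane, had 99.9, 50.8 and 60.4 at E15 against 24918, 23662 and 24768 in adult pools, 348-fold (log2 -8.44 ± 0.25 SE) higher in the adult. Basigin (*Bsg*), the ancillary protein of the lactate carriers, had 17466 ± 4339.6 at E15 and 59207 ± 2058 in the adult (3.39-fold), and embigin (*Emb*), which serves the same carriers, 356 ± 15.5 at E15 and 6792 ± 705 in the adult (19-fold). Neuroplastin (*Nptn*), of the basigin family, was 5.91-fold higher in the adult. Their direction was that of *Slc16a1*, *Slc16a7*, *Slc16a8* and *Slc6a20*, with folds from 2.25 to 53.7 among these carriers.

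**Figure D4:**
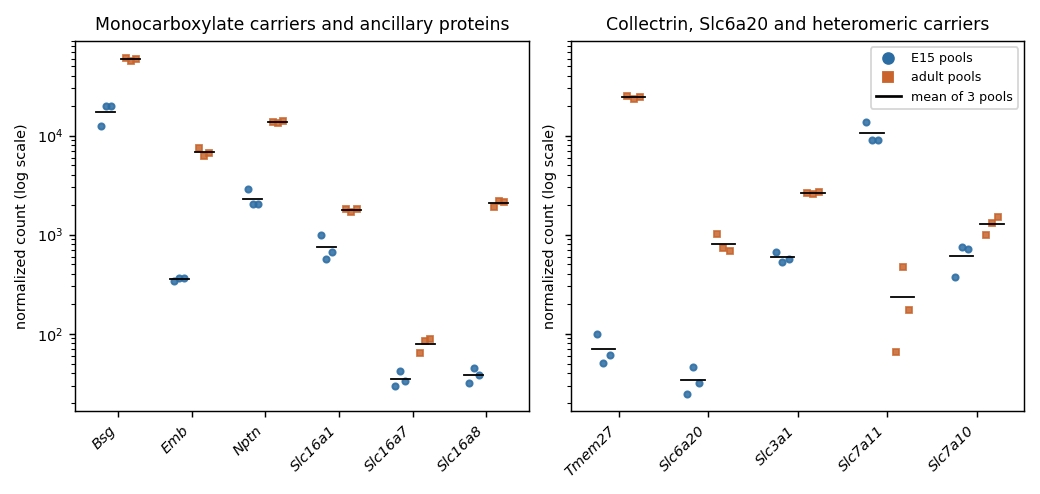
Normalized counts on a log scale for ancillary proteins beside carriers; circles are E15 pools, squares adult pools and lines means of 3 pools. Left, *Bsg*, *Emb* and *Nptn* with 3 lactate carriers, all higher in every adult pool. Right, *Tmem27* with *Slc6a20*, and *Slc3a1*, *Slc7a11* and *Slc7a10*, of which *Slc7a11* alone was higher at E15. *Slc3a1* is not shown as the heavy chain of *Slc7a11* or *Slc7a10*, and the other heavy chain, *Slc3a2*, is not among the members.

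Enzymes that use or make the carried solutes followed several patterns. Brain creatine kinase (*Ckb*) and the mitochondrial *Ckmt1* were 8.4-fold and 80.8-fold higher in the adult, as was the creatine carrier, whereas *Gatm*, the first enzyme of creatine synthesis, was 5.53-fold higher at E15. Lactate dehydrogenase B (*Ldhb*) had 3458 ± 170.4 at E15 and 29993 ± 1903 in the adult (8.67-fold), and the mitochondrial pyruvate carrier subunit *Brp44l* was 7.57-fold higher in the adult. Hexokinase 2 (*Hk2*) and *Txnip*, which limits glucose uptake, were 3.43-fold and 3.36-fold higher at E15. All 4 named enzymes of glutamine and glutamate metabolism were higher in the adult, from *Got2* at 2.79-fold to *Got1* at 5.3-fold. Of 5 named genes of glycine and serine metabolism, 2 were called higher at E15, *Shmt1* (35.9-fold) and *Gldc* (3.1-fold), and 3 in the adult, *Dld* (3.1-fold), *Phgdh* (2.16-fold) and *Psph* (1.65-fold). With total-count scaling *Phgdh* lost its call (log2 -0.31) and *Psph* changed sign (log2 0.08). The taurine enzyme *Csad* was 2.77-fold higher in the adult and *Cdo1* 1.98-fold higher at E15, beside a taurine carrier higher at E15. The GABA-degrading *Abat* was 9.35-fold higher in the adult, while 3 of the 53 partner genes were not called.

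Markers of other cell types moved with age and with single pools. They had a name only through the authors' list, so markers not called there are missing, and nothing is read from how many lay on a side. Of all genes tested, 34.7% were called higher at E15 and 29.3% in the adult. All 8 named endothelial markers were higher at E15, with sums of 11456 to 13917 normalized counts (E15) and 954 to 1445 (adult). All 6 erythroid markers (7461 to 9209 and 144 to 270.1), all 4 of proliferation (6919 to 8434 and 133 to 162), all 7 of neural progenitors (29886 to 30759 and 2827 to 3774) and 6 of 8 of mesenchyme (42509 to 56340 and 15930 to 16609) were also higher at E15. *Vim* alone made up most of the progenitor sum at E15 (23120, 26945 and 26117). The median deviation of the progenitor list from the other E15 pools was 0.63, -0.66 and 0.03 (log2). The developing neuron markers summed to 1853 to 5873 and 176 to 840.1, with 10 of 11 called higher at E15, while *Gap43* was not called (log2 0.93 ± 0.86 SE) and the ages overlapped in *Gap43* and *Stmn2*. None of these lists was at 0 in the adult as a whole, though 1 erythroid and 2 neuronal markers were. All 4 named astrocyte markers were higher in the adult (165 to 203 and 1961 to 5203), with 5 of 7 of oligodendrocytes (1798 to 1925 and 3489 to 9124). Both named macrophage markers (932 to 1176 and 350 to 648) and both of ependyma (246 to 284 and 34.3 to 79.2) split between the ages. The part of these cell types in the members' differences between ages was not tested.

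Within the adult, 8 of the 46 members with a mean above 10 were more than 2-fold higher in replicate 2 than the mean of the other adult pools, where 3.84% of 13528 genes were. In replicates 1 and 3 it was 1 member each, where 1.27% and 1.26% of these genes were. Among the 8 in replicate 2 were *Slc6a11* (5.93-fold), *Slc6a13* (4.88), *Slc2a3* (4.84), *Slc7a11* (3.97), *Slc1a3* (2.96), *Slc38a1* (2.13) and *Slc2a5* (2.04). Beside the astrocyte markers given above, the neuronal markers summed to 176, 840.1 and 210.1 in adult replicates 1, 2 and 3. Replicate 2 was also the highest for endothelial (954, 1445 and 1132) and erythroid markers (144, 270.1 and 170.3). The same held for markers of mesenchyme (15930, 16609 and 16046) and neural progenitors (2827, 3774 and 2963). It held for macrophages (350, 648 and 582) and ependyma (52.4, 79.2 and 34.3) as well, but not for proliferation (133, 158 and 162). Oligodendrocyte markers were highest in replicate 1 (9124, 4708 and 3489), and epithelial markers summed to 5051240, 4219860 and 4118640. Most of the epithelial sum was *Ttr* (4584670, 3761500 and 3639580), and the median deviations of the epithelial list were 0.04, -0.08 and 0.07 (log2). The part of these other cell types in the 8 members was not tested. Without adult replicate 2, 32 members were called higher at E15 and 21 in the adult. At E15, neuronal markers were highest in replicate 1 (5873, 1853 and 4285), and in that pool the members lay a median of -0.26 (log2) from the mean of the others.

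**Figure D5:**
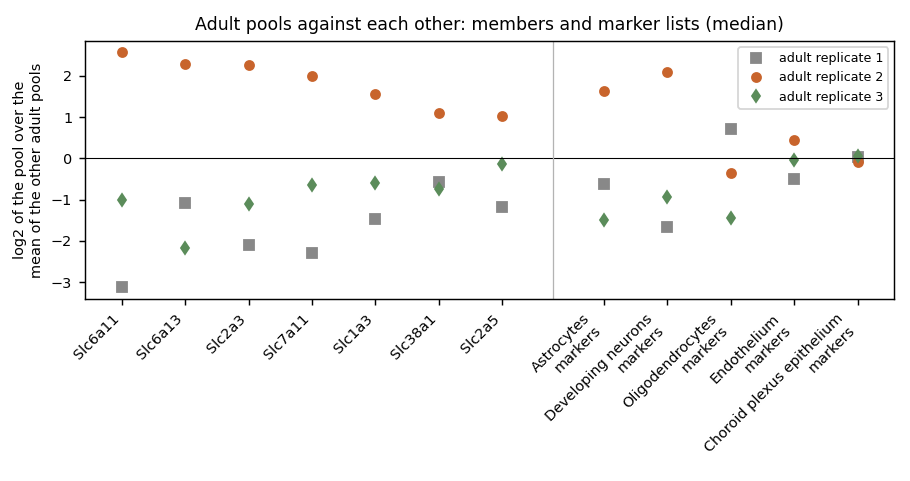
Log2 ratio of each adult pool to the mean of the other adult pools, for 7 of the 8 members more than 2-fold higher in replicate 2 and, to the right of the line, the median over 5 marker lists. Replicate 2 lay above 1 in these members by their choice. Its medians were 1.64 for astrocyte, 2.09 for neuronal, 0.44 for endothelial, -0.34 for oligodendrocyte and -0.08 for epithelial markers.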

How the data were processed

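RNA of lateral ventricular choroid plexus was analysed in 3 pools at E15 and 3 in the adult. The deposited values are raw counts per Ensembl gene, which the authors obtained with Bowtie 0.12.7 (Ensembl release 61), keeping reads with a single place, and HTSeq 0.4.7p4 (union option), without normalization. Reads of near-identical copies and overlapping genes are thereby lost, so such genes are uncertain. A table by the authors of genes called with edgeR 2.4.0 holds fold changes, abundances and p-values, and only its identifiers, names and descriptions were used. Per-sample columns were all used. Totals were 17875089 to 19204440 counts. Nothing says that replicates came from separate litters.

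Genes with more than 10 counts in all (16643) were fitted with edgeR 4.0.16 (TMM, estimateDisp, glmQLFit, glmQLFTest, age as the only term) in R 4.3.3, with Benjamini-Hochberg adjustment and a threshold of 0.05. The biological coefficient of variation common to all genes was 18.2%. A gene without counts at an age was held to 3 counts over its 3 pools, and 1 to 3 counts were given an exact binomial 95% interval, both for counting error only. Deviations between pools used a pseudocount of 0.5. The fit was also run on simulated counts. These had the same gene means at both ages apart from a set of changed genes, so they cannot test the scaling between ages. Alternatives were RLE, upper-quartile and total-count scaling, no filter and filterByExpr, DESeq2 1.42.0, limma-voom (limma 3.58.1), edgeR's exact test, a replicate block and leaving out each pool.

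The members and all lists were chosen with earlier results of these data known. Pool values were given for the 3 members of highest mean count in each substrate group and the 8 largest changes in each direction with a mean above 100, and for other members where a pool decided the value, chosen after their values were seen. Some genes of the marker and partner lists had no name and were not analysed here, and the results of some members are not reported here. Figures were made with Python 3.11.15 and matplotlib 3.10.9.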

Additional observations from a re-analysis of the deposited data

How the results depend on the processing

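The counts of members called higher at E15 (32) and of partner genes (14 and 36) stayed within 1.5 times under every alternative run, and members called higher in the adult (23) fell to 11 with total-count scaling and 15 without the 10 most abundant genes, as those scalings move all genes towards E15. The members' median log2 fold change was then 1.81 and 1.47, against 1.0. *Slc2a8* and *Slc6a9* reversed with total counts (log2 0.19 and 0.21), and the 10 members that lost their call there included *Slc16a1*, *Slc16a7*, *Slc16a13*, *Slc2a5*, *Slc27a1*, *Slc36a1*, *Slc5a11*, *Slc6a11* and *Slc7a10*. With 1 pool left out, 31 to 33 members were called at E15 and 20 to 22 in the adult, 11 to 13 and 34 to 37 partner genes, and the median was 0.90 to 1.10. *Slc16a14*, *Slc2a5*, *Slc5a11* and *Slc6a11* lost their call without some pool. Deviations of same-numbered pools of the ages had r of -0.04, 0.05 and -0.14 over 11003 genes, and those of other pairs -0.09 to 0.13. With 3 pools per age, such values cannot show whether same-numbered pools were paired. With a replicate block 31 members were called at E15 and 20 in the adult, 12 and 36 partner genes, with a median of 1.0. No transcript lengths were used, so levels between genes cannot be ranked.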
